A study of Mus musculus with 23 samples.

Results

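The genes described here fill, empty and refill the calcium store of the endoplasmic reticulum (ER). They are the pump gene Atp2a2, the IP3 receptor genes Itpr1, Itpr2 and Itpr3, the store sensor genes Stim1 and Stim2, and the entry channel genes Orai1 and Orai3. They were chosen by symbol as rows of the normalized count table, and all 8 were found among its 14651 genes. Their levels were measured by RNA sequencing of whole brown adipose tissue (BAT) from 23 male mice aged 8 to 12 weeks. The mice were mostly, not fully, of C57BL/6 background. The altered Mcu alleles were made in stem cells of mixed background, and the line was then crossed to C57BL/6. Control mice carried the alleles Mcu fl/fl, in which exon 2 of the mitochondrial calcium uniporter gene is flanked by loxP sites, and no Cre. BAT-Mcu-KO mice, called knockout mice below, were Mcu fl/fl;Ucp1-Cre, with the same alleles and a Cre recombinase driven by the Ucp1 promoter. Other cells of the depot, which do not use that promoter, keep Mcu. At room temperature (RT) there were 6 control and 6 knockout mice, and after 6 h at 4°C 5 control and 6 knockout mice. Each mouse at 4°C was alone in a pre-cooled cage that held no bedding, and food was withheld unless stated otherwise, so cold, loss of food and single housing cannot be told apart in what is called cold below.

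The ER of a resting cell holds far more free calcium than the cytosol. SERCA pumps, which Atp2a2 encodes in most tissues, move calcium from the cytosol into the ER and spend ATP to do so. IP3 receptors are channels that let calcium out again when hormones such as noradrenaline, acting on alpha1-adrenergic receptors, raise IP3. When the store runs low, STIM proteins in the ER membrane sense it and open ORAI channels in the plasma membrane, which is called store-operated calcium entry. Mitochondria beside the ER take up part of the released calcium through the uniporter. Calcium cycling by SERCA is also known as a source of heat. The authors of the study list calcium cycling at the ER membrane as a heat source of beige, not brown, adipocytes.

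Libraries held 7129271 to 21006347 reads counted in genes. For the targeted gene Mcu, the normalized count at RT was 110 ± 22.5 (SD, n = 6) in control and 35.1 ± 10.03 (n = 6) in knockout mice. After cold it was 107 ± 26.8 (n = 5) and 33.9 ± 6.60 (n = 6), with no overlap between the genotypes at either temperature. A normalized count is the number of reads of a gene divided by the size factor of its library, so it follows depth but not gene length. All 9 brown adipocyte markers examined were present, with Ucp1, the uncoupling protein that defines brown adipocytes, at a normalized count of 50590 to 198043. The libraries stood apart in skeletal muscle transcripts: the summed normalized count of 12 muscle markers ran from 14.9 to 48706. Every group held a library with a sum under 100, but the high sums were spread unevenly. In control mice the highest sum was 6591 at RT and 34663 at 4°C, with means of 2411 and 15287. In knockout mice it was 48706 at RT and 8940 at 4°C, with means of 21205 and 4364. The means were thus higher at 4°C in control and lower in knockout mice. Cells of a type becoming fewer and cells holding less RNA cannot be told apart in such tissue samples.

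Cold raised the pump gene and lowered several of the genes for release and entry. In control mice Atp2a2 rose to 2.19-fold its RT level, while Itpr2, Orai3 and Itpr1 fell to 0.470, 0.602 and 0.783 of theirs, so that 4 of 8 genes were called at a limma adjusted p under 0.05, against 46.0% of all 14651 genes (22.3% higher, 23.7% lower). In knockout mice the same 4 genes moved the same way and Stim1 also fell, so that 5 of 8 were called, against 43.3% of all genes (21.4% higher, 21.9% lower). Set beside these shares, the counts alone do not mark out the 8 genes as a group. Atp2a2, Itpr1, Itpr2 and Orai3 were called in the same direction in both genotypes, 4 of 8 genes against 34.8% of all genes. The median log2 fold change of the 8 genes was -0.12 in control and -0.18 in knockout mice, and that of all genes -0.02 in each.

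Loss of Mcu in brown adipocytes moved none of the 8 genes past the threshold. By genotype 0 of 8 genes were called at RT, against 0.0478% of all genes, and 0 of 8 at 4°C, against 0.0751%. In the interaction, the difference between the genotypes in the response to cold, 0 of 8 were called and 0% of all genes. None of the 8 reached an unadjusted p under 0.05 in these comparisons, where 5.15%, 6.98% and 5.99% of all genes did, and DESeq2 and edgeR on the recovered reads also called 0 of 8. The genotypes overlapped for all 8 genes, whereas they did not for 0.218% of all genes at RT and 0.683% at 4°C.

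**Figure D1:**
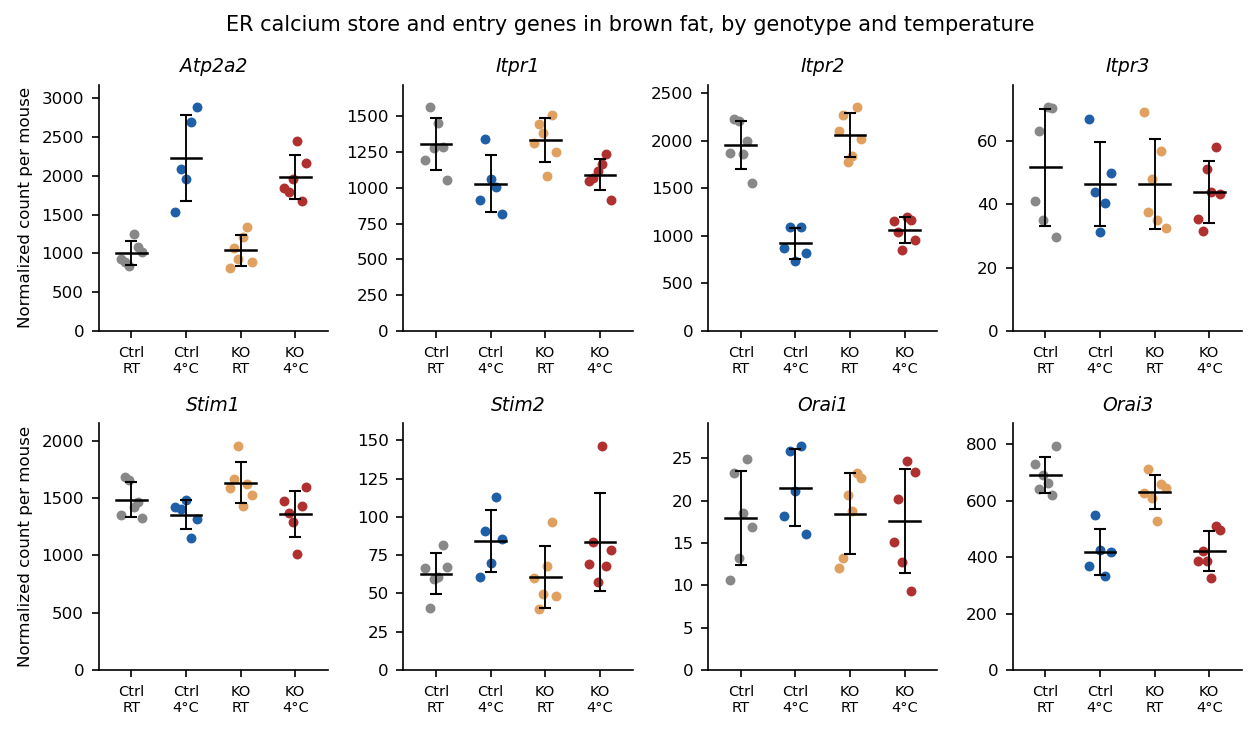
Normalized count of each of the 8 genes in each mouse (points) with the group mean (horizontal line) and SD (bars), for control (Ctrl) and knockout (KO) mice at RT and 4°C; each axis starts at 0. The cold and RT mice stand apart within each genotype for Atp2a2, Itpr2 and Orai3, and the genotypes overlap for every gene.

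Atp2a2, the gene of the pump SERCA2, lies at chr5:122453513-122502225 on the minus strand (GRCm38). Its normalized count ran from 832 over a median of 976 to 1257 in control mice at RT and the 5 cold mice of that genotype had 1537, 2084, 1964, 2689 and 2888. In knockout mice it ran from 814 over 995 to 1340 at RT and from 1674 over 1905 to 2446 at 4°C. Every cold mouse was above every RT mouse of its genotype, and cold mice of both genotypes also stood above the RT mice of the other. Of all genes, 25.2% had cold and RT mice apart in control and 24.2% in knockout mice, 13.0% and 12.4% with the cold mice higher. The mean rose from 1002 ± 154 (SD, n = 6) to 2232 ± 551 (n = 5) in control mice, a log2 fold change of 1.13 ± 0.15 (SE; limma adjusted p = 8.5e-07). In knockout mice it rose from 1040 ± 204 to 1981 ± 283 (n = 6 each), a log2 fold change of 0.94 ± 0.14 (limma adjusted p = 6.5e-06). The genotype differences in log2 were 0.04 at RT (95% interval -0.25 to 0.34) and -0.15 at 4°C (-0.45 to 0.16), and the difference between the 2 responses to cold was -0.19 (-0.61 to 0.23; limma adjusted p = 0.916).

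Atp2a2 is also the pump of heart and slow muscle, so its level was set beside the muscle transcripts. The summed markers say little about slow muscle, since its myosin gene Myh7 reached a normalized count of at most 953. By cold, Myh7 had log2 fold changes of 3.09 ± 1.83 (SE; limma adjusted p = 0.174) in control and -1.996 ± 1.74 (limma adjusted p = 0.381) in knockout mice. The part of slow muscle in the Atp2a2 level was not tested. In the 5 libraries with a summed muscle marker count under 100, Atp2a2 was 1021 and 1340 in the 2 RT mice and 1537, 1964 and 2169 in the 3 cold mice. In the other libraries it ran from 814 to 1257 at RT (10 mice) and from 1674 to 2888 at 4°C (8 mice). Cold mice were above RT mice in both sets. Among control mice at 4°C, the 3 with muscle sums of 11739, 29995 and 34663 had higher Atp2a2 (2689, 2888 and 2084) than the 2 with sums of 14.9 and 22.3 (1964 and 1537). Knockout mice at RT had 923, 887 and 1208 at the 3 highest sums of the series (48706, 38659 and 35149). Those with sums of 1408 and 3288 had 814 and 1067, and the 1 with a sum of 18.6 had 1340, so Atp2a2 followed no single direction there. Of the 6 knockout mice at 4°C, the 1 with a sum of 49.2 had the second highest Atp2a2 (2169). Without the 4 libraries highest in muscle markers (3 of 6 knockout mice at RT and 1 of 5 control mice at 4°C), the log2 fold change by cold was 1.15 in control (limma adjusted p = 7.26e-06) and 0.90 in knockout mice (limma adjusted p = 5.1e-04). The muscle pump gene Atp2a1 itself ranged from 0 to 14882 in normalized count over the 23 libraries, and its log2 fold changes by cold, 0.02 ± 2.32 (SE) in control and -1.08 ± 2.21 in knockout mice, were smaller than their errors.

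**Figure D2:**
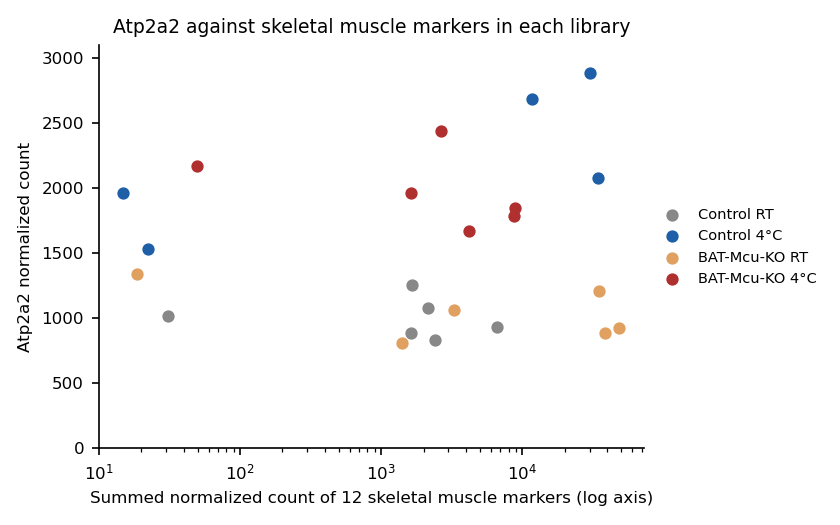
Normalized count of Atp2a2 (vertical axis) against the summed normalized count of 12 skeletal muscle markers (horizontal log axis) in each of the 23 libraries, coloured by group. Cold libraries lie at 1537 to 2888 and RT libraries at 814 to 1340 over the whole range of muscle sums.

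The IP3 receptor genes encode closely related subunits that form channels of 4, and the forms differ in how tightly they bind IP3, with the product of Itpr2 the tightest. Itpr1 lies at chr6:108213096-108551109 on the plus strand, Itpr2 on the same chromosome at chr6:146108299-146502223 on the minus strand, and Itpr3 at chr17:27057304-27122223 on the plus strand. The stretch around the start site is printed here for Itpr2, which fell with cold, and for Itpr3 of the same family, which was not called. Sequences are from RefSeq (GRCm38.p6), from 250 bases before the start site to 50 after it, on the strand of the gene. Of the 8 genes 6 had an entry, all but Atp2a2 and Itpr1. Capitals mark, on either strand, the CRE half-site TGACG (also part of the full CRE named below), the CCAAT box CCAAT and the GC box GGGCGG. The windows are chr6:146502174-146502473 for Itpr2 and chr17:27057054-27057353 for Itpr3.
Itpr2: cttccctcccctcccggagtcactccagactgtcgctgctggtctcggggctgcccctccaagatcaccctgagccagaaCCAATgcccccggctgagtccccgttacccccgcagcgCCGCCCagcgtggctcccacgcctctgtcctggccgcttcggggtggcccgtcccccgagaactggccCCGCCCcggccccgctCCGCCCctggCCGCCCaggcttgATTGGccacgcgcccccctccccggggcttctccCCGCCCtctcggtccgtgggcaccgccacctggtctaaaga
Itpr3: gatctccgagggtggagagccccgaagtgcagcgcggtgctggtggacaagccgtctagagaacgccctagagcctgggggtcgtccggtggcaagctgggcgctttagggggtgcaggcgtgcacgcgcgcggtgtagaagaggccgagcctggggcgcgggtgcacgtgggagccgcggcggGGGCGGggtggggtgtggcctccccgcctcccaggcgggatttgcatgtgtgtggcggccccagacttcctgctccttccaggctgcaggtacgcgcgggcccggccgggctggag
The Itpr2 window held 2 CCAAT boxes, which start 170 and 25 bases before the start site, and 5 GC boxes, while the Itpr3 window held 1 GC box and no CCAAT box. Of 32851 RefSeq promoters of this length, 37.4% held a CCAAT box, 35.7% a GC box and 20.8% a CRE half-site, so these letters are common.

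Itpr2 showed the largest fall with cold among the 8 genes in either genotype. Its normalized count ran from 1555 over a median of 1938 to 2232 in control mice at RT, against 876, 1093, 734, 1091 and 820 in the 5 mice after cold. In knockout mice the range was 1782 over 2059 to 2356 at RT and 853 over 1097 to 1201 at 4°C. The cold and RT mice did not overlap in either genotype, as for 12.3% and 11.9% of all genes with the cold mice lower. The mean fell from 1956 ± 253 (SD, n = 6) to 923 ± 162 (n = 5) in control mice, a log2 fold change of -1.09 ± 0.12 (SE; limma adjusted p = 3.2e-08). It fell from 2060 ± 229 to 1061 ± 137 (n = 6 each) in knockout mice, a log2 fold change of -0.96 ± 0.11 (limma adjusted p = 1.3e-07). Itpr2 had the largest genotype difference in log2 at 4°C of the 5 well-covered genes, 0.21 (95% interval -0.03 to 0.45; limma adjusted p = 0.755), with overlapping groups.

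Itpr1, the form best known from neurons, fell less. Its mean normalized count was 1306 ± 182 (SD, n = 6) in control mice at RT and 1029 ± 199 (n = 5) at 4°C, where the 5 mice had 914, 1345, 1062, 1003 and 820. In knockout mice it was 1332 ± 154 at RT and 1093 ± 111 at 4°C (n = 6 each), with a range of 1082 to 1512 at RT and 914 to 1237 at 4°C. Cold and RT mice overlapped in both genotypes. The log2 fold change was -0.35 ± 0.12 (SE) in control (limma adjusted p = 0.0148) and -0.28 ± 0.11 in knockout mice (limma adjusted p = 0.0408). The call in control mice was lost without mouse 5 of the control group at 4°C (adjusted p = 0.062). That in knockout mice was lost, with adjusted p up to 0.107, when any 1 of 8 of these mice was left out (mice 1, 2, 3 and 5 at RT, mice 1, 2, 3 and 6 at 4°C). Itpr3 was low in all mice, at a normalized count of 29.8 to 70.7 (25 to 80 reads), with group means between 43.9 and 51.7. Its log2 fold changes by cold of -0.11 ± 0.25 (SE) and -0.05 ± 0.24 did not differ from 0 by more than their error.

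STIM1 and STIM2 are the sensors, of which STIM1 carries most store-operated entry and STIM2 responds to smaller drops of the store. Stim1 lies at chr7:102267806-102437319 and Stim2 at chr5:53998499-54121057, both on the plus strand. Stim1 had a mean normalized count of 1485 ± 153 (SD, n = 6) in control mice at RT and 1355 ± 130 (n = 5) at 4°C, with 1422, 1405, 1481, 1147 and 1321 in the 5 cold mice. Of these, 3 of 5 lay within the RT range of 1328 to 1684 and the other two below it. The log2 fold change in control mice was -0.13 ± 0.10 (SE; limma adjusted p = 0.317). In knockout mice Stim1 ran from 1430 over 1606 to 1955 at RT and from 1016 over 1401 to 1597 at 4°C, and fell by 0.27 ± 0.10 in log2 (limma adjusted p = 0.0309), with overlapping groups. The difference between the genotypes in this response, -0.14 (95% interval -0.43 to 0.16; limma adjusted p = 0.912), did not pass the test. The call in knockout mice was lost without any 1 of 4 mice (mice 2 and 3 at RT, mice 3 and 4 at 4°C; adjusted p up to 0.106) and without the 4 libraries highest in muscle markers (adjusted p = 0.0992).

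Stim2 was lower, with a normalized count of 39.8 to 146 over the 23 mice. Its mean was 62.9 ± 13.4 (SD, n = 6) in control mice at RT and 84.1 ± 20.3 (n = 5) at 4°C, and 60.5 ± 20.3 and 83.8 ± 31.9 in knockout mice (n = 6 each). The log2 fold changes by cold, 0.41 ± 0.23 (SE; limma adjusted p = 0.157) and 0.45 ± 0.22 (limma adjusted p = 0.103), did not pass the test. The highest value, 146, was that of 1 knockout mouse at 4°C, and the next in that group was 83.3.

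ORAI1 and ORAI3 are subunits of the entry channel in the plasma membrane, and ORAI3 is the youngest member of the family, found in mammals. Orai1 lies at chr5:123015074-123030456 and Orai3 at chr7:127769815-127775150, both on the plus strand. Their start site windows, chr5:123014824-123015123 and chr7:127769565-127769864, are printed with the same capitals as for Itpr2, because Orai3 fell with cold and Orai1 was not called.
Orai1: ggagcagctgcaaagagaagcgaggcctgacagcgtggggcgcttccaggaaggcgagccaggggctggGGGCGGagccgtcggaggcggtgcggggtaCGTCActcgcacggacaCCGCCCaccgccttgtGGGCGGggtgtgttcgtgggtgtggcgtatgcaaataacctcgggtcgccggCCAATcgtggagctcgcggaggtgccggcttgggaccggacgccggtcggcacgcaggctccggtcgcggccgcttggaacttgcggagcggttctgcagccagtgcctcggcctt
Orai3: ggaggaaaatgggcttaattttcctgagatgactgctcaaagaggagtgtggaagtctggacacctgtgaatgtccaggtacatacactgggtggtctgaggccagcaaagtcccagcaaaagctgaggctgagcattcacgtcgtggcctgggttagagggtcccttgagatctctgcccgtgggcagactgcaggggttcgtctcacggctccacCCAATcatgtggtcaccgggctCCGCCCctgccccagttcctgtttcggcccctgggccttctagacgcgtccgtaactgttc
The Orai1 window held 1 CRE half-site, 1 CCAAT box and 3 GC boxes, and the Orai3 window 1 CCAAT box, which starts 33 bases before the start site, and 1 GC box. G and C made up 57.7% of the Orai3 window, 70.3% of the Orai1 window and 52.7% of the median promoter. Among the 6 windows, the half-site was found in those of Orai1 and Stim1, the CCAAT box in those of Itpr2, Orai1, Orai3 and Stim2, and a GC box in all 6. The full CRE TGACGTCA, which 1.79% of all promoters hold, and the TATA box TATAAA, which 13.6% hold, were in none of the 6. Neither was the composite element TGATGNAA of ATF4 (3.97% of all promoters) or the ER stress element (0.119%). A match describes the letters of a window, and binding was not measured.

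Orai3 had a normalized count of 619 over a median of 677 to 795 in control mice at RT, and the 5 cold mice of that genotype had 370, 549, 427, 334 and 417. In knockout mice it ran from 528 over 638 to 713 at RT and from 325 over 404 to 510 at 4°C. All cold mice of a genotype were below all its RT mice, as for 12.3% of all genes in control and 11.9% in knockout mice. The mean fell from 690 ± 64.1 (SD, n = 6) to 420 ± 81.6 (n = 5) in control mice, a log2 fold change of -0.73 ± 0.12 (SE; limma adjusted p = 2.0e-05). It fell from 631 ± 61.6 to 421 ± 71.3 (n = 6 each) in knockout mice, a log2 fold change of -0.60 ± 0.12 (limma adjusted p = 1.5e-04). The difference between the genotypes in this response was 0.14 in log2 (95% interval -0.21 to 0.48, limma adjusted p = 0.932). Orai1 was the lowest of the 8 genes in normalized count, at 9.30 to 26.4, which rests on 8 to 36 reads a library. Its log2 fold changes by cold were 0.28 ± 0.28 (SE) in control and -0.10 ± 0.26 in knockout mice, each about as large as its error or smaller. A level of 3 reads, taken as the floor, corresponded to a normalized count of 1.97 to 6.07 in these libraries. The third family member, Orai2, was not analysed here.

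**Figure D3:**
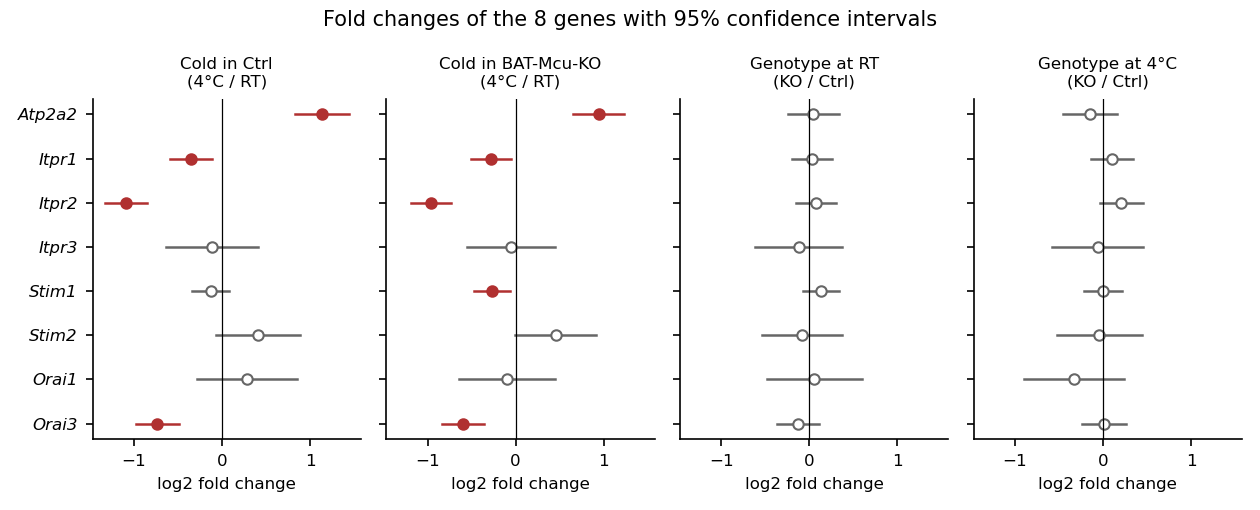
Log2 fold changes (horizontal axis) of the 8 genes with 95% confidence intervals from limma, for cold against RT in each genotype and for knockout against control at each temperature; filled red points passed an adjusted p under 0.05. Atp2a2 lies right of 0 with cold in both genotypes and Itpr1, Itpr2 and Orai3 lie left of it, and all genotype intervals include 0.

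The precision differed between the genes. For Atp2a2, Itpr1, Itpr2, Stim1 and Orai3, the 95% intervals of the genotype differences in log2 lay between -0.45 and 0.45 at both temperatures. For Itpr3, Stim2 and Orai1 they lay between -0.90 and 0.60, so larger true differences remain possible for these genes. How far depth or the spread between mice set this width was not tested. The cold comparisons in the 2 genotypes share no mice, whereas each genotype comparison shares mice with both cold comparisons, and the interaction uses all mice.

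Levels of different genes were compared per kilobase (kb) of merged exons. At RT in control mice the order of the mean levels was Orai3 (322 normalized counts per kb), Atp2a2 (165), Stim1 (143), Itpr2 (132), Itpr1 (71.3), Stim2 (12.3), Orai1 (7.80) and Itpr3 (5.73). The ranges over mice of Atp2a2, Stim1 and Itpr2 overlapped from each to the next, as did those of Stim2, Orai1 and Itpr3, and the other steps were apart. After cold, Atp2a2 (367) came first, before Orai3 (196), whose ranges overlapped in control but not in knockout mice (326 and 197), and Itpr2 (62.3) came down to the range of Itpr1 (56.2). The order depends on the length used. With the length of the longest transcript, Stim1 came first at RT (340 in control mice), its range overlapping that of Orai3.

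Of the STIM genes, and of Orai1 and Orai3, a single gene made up most of the level, and in the IP3 receptor family a pair did. Per kb of merged exons, Orai3 accounted for 95.3 to 97.6% of Orai1 and Orai3 together in the group means, and Stim1 for 88.6 to 93.0% of the STIM genes. Itpr2 made up 63.2% ± 2.61 (SD, n = 6) of the IP3 receptor genes in control mice at RT and 50.4% ± 4.05 (n = 5) at 4°C, and 64.1% ± 2.24 and 52.5% ± 3.36 in knockout mice (n = 6 each). The RT mice, at 59.1 to 66.9% in control, did not overlap with the cold mice, at 44.7 to 55.4%, and the same held in knockout mice. This share restates the changes of Itpr1 and Itpr2 given above and got no test. Itpr1 took most of the rest, 34.1% at RT and 45.4% at 4°C in control mice. With the length of the longest transcript the Itpr2 share was 54.8% at RT and 42.0% at 4°C in control mice, so the larger share at 4°C passed to Itpr1, at 55.2%.

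The ratio of pump to release channel transcripts was higher in the cold. It is built from the values of Atp2a2 and the IP3 receptor genes given above, restates their changes and got no test. Atp2a2 per kb was 0.802 ± 0.173 (SD, n = 6) times the sum of the 3 IP3 receptor genes in control mice at RT and 3.03 ± 0.948 times (n = 5) at 4°C. In knockout mice the ratio was 0.792 ± 0.161 at RT and 2.42 ± 0.426 at 4°C (n = 6 each). The highest RT mouse had 1.06 and the lowest cold mouse 1.80. With the length of the longest transcript the means were 0.588 and 2.14 in control and 0.582 and 1.71 in knockout mice. These are ratios of messenger RNA, and neither protein nor calcium was measured in these files.

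**Figure D4:**
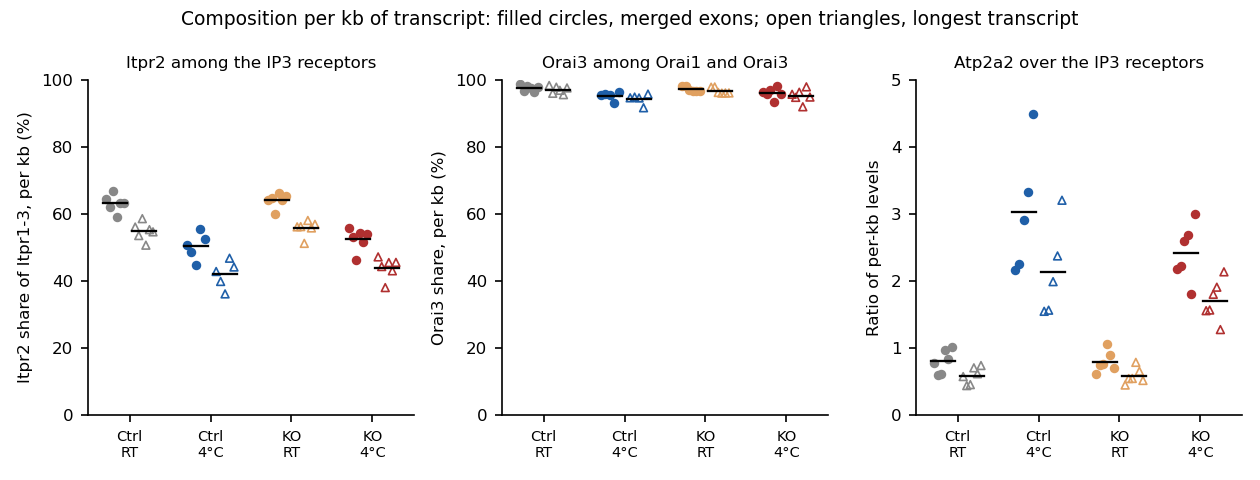
Share of Itpr2 among the 3 IP3 receptor genes (left), share of Orai3 among Orai1 and Orai3 (middle) and ratio of Atp2a2 to the summed IP3 receptor genes (right), all per kb, in each mouse; filled circles use merged exons, open triangles the longest transcript, and lines are group means. In control mice the mean Itpr2 share was 63.2% at RT and 50.4% at 4°C and the mean ratio 0.802 and 3.03 (merged exons), and the choice of length shifts these levels but not their direction.

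The other genes of the pathway were taken from 7 lists with 85 genes, of which 69 were in the table. Cold called 36 of these 69 in control mice (14 higher, 22 lower, 52.2%) and 42 of 69 in knockout mice (17 higher, 25 lower, 60.9%), against 46.0% and 43.3% of all genes. By genotype and in the interaction 0 of 69 were called (2, 4 and 5 with an unadjusted p under 0.05).

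Of 6 genes that act on SERCA, 3 rose and 1 fell in control mice and 3 rose and 2 fell in knockout mice (66.7 and 83.3% called, against 46.0 and 43.3% of all genes). Vmp1, an ER protein that activates SERCA, rose from 916 ± 75.4 (SD, n = 6) to 1450 ± 104 (n = 5) in normalized count, with a log2 fold change of 0.66 ± 0.08 (SE; limma adjusted p = 5.2e-07) in control and 0.74 ± 0.08 in knockout mice. Tmem64, which binds SERCA2, rose by 0.54 ± 0.13 in log2 in control mice (limma adjusted p = 0.00167). 1810037I17Rik, which RefSeq also lists as Aln and which encodes another-regulin, a small inhibitor of SERCA, fell by 0.87 ± 0.11 in control (limma adjusted p = 6.5e-07) and by 0.52 ± 0.11 in knockout mice. Tmx1, a redox protein of the ER that inhibits SERCA2, rose by 0.37 ± 0.11 in control (limma adjusted p = 0.00631) and by 0.42 ± 0.10 in knockout mice, so that of these 2 inhibitors 1 fell and 1 rose. Pln, the cardiac inhibitor phospholamban, was low, with group means of 25.5 to 39.3, and was called in knockout mice (log2 fold change -0.57, limma adjusted p = 0.016) but not in control mice (-0.24, limma adjusted p = 0.342). The difference between these responses did not pass the test (limma adjusted p = 0.887). Sln, the SERCA uncoupler sarcolipin, was not analysed here.

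Of the 14 genes for calcium-binding and calcium-dependent proteins of the ER, 4 rose and 2 fell in control mice and 5 rose and 3 fell in knockout mice. The shares called were 42.9 and 57.1%, against 46.0 and 43.3% of all genes. Hspa5, the ER chaperone BiP, rose by 0.78 ± 0.10 in log2 in control (limma adjusted p = 7.8e-07) and by 0.83 ± 0.10 in knockout mice. Calu, which encodes the calcium-binding protein calumenin, rose by 0.56 ± 0.07 (limma adjusted p = 5.5e-07) and 0.59 ± 0.07. Pdia4, a protein disulfide isomerase of the ER, fell by 1.15 ± 0.14 (limma adjusted p = 4.1e-07) and by 0.92 ± 0.14. Calr, the main store buffer calreticulin, passed the test in knockout mice (0.40, limma adjusted p = 0.00125) and had 0.20 with an adjusted p of 0.107 in control mice, and the difference did not pass the test (limma adjusted p = 0.869). This list did not move in a single direction.

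Of 10 genes that act on IP3 receptors, 9 fell in control and 8 in knockout mice, where 23.7% and 21.9% of all genes fell, and 0 rose, with a median log2 fold change of -0.60 and -0.47 against -0.02 for all genes. Rnf170, a ubiquitin ligase for activated IP3 receptors, fell by 1.12 ± 0.18 in control (limma adjusted p = 2.0e-05) and by 0.69 ± 0.18 in knockout mice. Ahcyl2, a relative of the receptor inhibitor IRBIT, fell by 0.81 ± 0.16 (limma adjusted p = 1.2e-04) and by 0.74 ± 0.15. The list holds inhibitors and degradation factors alike, and Bcl2 was the member not called in either genotype.

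Upstream, among 18 genes for making and removing IP3, 7 fell and 3 rose in control and 8 fell and 4 rose in knockout mice. This was 55.6 and 66.7% called, beside 46.0 and 43.3% of all genes. Adra1a, the alpha1A-adrenergic receptor, fell from 1170 ± 144 (SD, n = 6) to 810 ± 76.8 (n = 5) in control mice (log2 fold change -0.53 ± 0.11, limma adjusted p = 3.4e-04) and by 0.29 ± 0.11 in knockout mice (limma adjusted p = 0.0266). Gna11, a G protein subunit that couples such receptors to phospholipase C, fell by 0.53 ± 0.08 (limma adjusted p = 1.0e-05) and by 0.45 ± 0.08. Plce1, a phospholipase C, fell by 1.17 ± 0.19 (limma adjusted p = 1.4e-05) and by 0.73 ± 0.18. The 3 that rose in control mice were Plcb4, a phospholipase C, at 0.42 ± 0.10 (limma adjusted p = 0.00109), Itpkc, an IP3 kinase, at 0.66 ± 0.19 (limma adjusted p = 0.00504), and Inpp5a, an IP3 phosphatase, at 0.53 ± 0.20 (limma adjusted p = 0.0358). In knockout mice Plcb4 and Itpkc also rose, by 0.41 ± 0.09 and 0.49 ± 0.18, and Inpp5a had 0.43 ± 0.19 (limma adjusted p = 0.0759). Itpka, another IP3 kinase and a low gene (means of 34.5 and 12.0 in normalized count in control mice at RT and 4°C), fell by 1.53 ± 0.36 in control (limma adjusted p = 9.4e-04) and by 1.72 ± 0.34 in knockout mice (limma adjusted p = 1.9e-04). Genes that make IP3 and genes that remove it were thus found among both the risers and the fallers, and these 4 were named after their values were seen.

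Of 10 genes that regulate store-operated entry, 2 rose and 2 fell in control mice and 2 rose and 1 fell in knockout mice. Their shares called, 40 and 30%, were below the 46.0 and 43.3% of all genes. Saraf, which shuts STIM1 off, rose from 1692 ± 255 (SD, n = 6) to 2233 ± 131 (n = 5), a log2 fold change of 0.41 ± 0.09 (limma adjusted p = 4.2e-04), and by 0.47 ± 0.08 in knockout mice. Trpc1, a channel linked to STIM1, rose by 1.45 ± 0.25 (limma adjusted p = 3.6e-05) and by 1.54 ± 0.24, from group means of 24.4 and 17.4 in normalized count at RT. Esyt1, a tether between ER and plasma membrane, fell by 0.86 ± 0.18 (limma adjusted p = 2.6e-04) and by 0.83 ± 0.17. Cracr2b, a regulator of ORAI channels, fell by 0.68 ± 0.13 in control mice (limma adjusted p = 8.3e-05) and had -0.20 ± 0.12 in knockout mice (limma adjusted p = 0.196), and the difference between these responses did not pass the test (limma adjusted p = 0.78). Saraf was named after its values were seen, as the fourth of the 4.

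Of 7 other pumps and release channels, 1 rose in control and 2 in knockout mice and 0 fell (14.3 and 28.6% called, against 46.0 and 43.3% of all genes). Atp2c1, the calcium and manganese pump of the Golgi apparatus, rose by 1.09 ± 0.24 (limma adjusted p = 7.2e-04) in control and by 0.76 ± 0.23 in knockout mice. Pkd2, a calcium channel of the ER and cilia, had 0.22 ± 0.14 in control (limma adjusted p = 0.202) and rose by 0.40 ± 0.13 in knockout mice (limma adjusted p = 0.0156), and the difference did not pass the test (limma adjusted p = 0.912). The muscle release channel gene Ryr1 had log2 fold changes of 0.34 ± 1.72 and -1.07 ± 1.64, with normalized counts from 0 to 767. Of 4 genes that move calcium out across the plasma membrane, 1 rose and 1 fell in control and 1 rose and 3 fell in knockout mice. That made 50 and 100% called, beside the same shares of all genes. Slc24a3, a sodium, potassium and calcium exchanger, fell by 0.71 ± 0.10 (limma adjusted p = 1.5e-06) and by 0.76 ± 0.09. Atp2b1, a plasma membrane calcium pump, rose by 0.36 ± 0.10 (limma adjusted p = 0.00459) and by 0.23 ± 0.09 (limma adjusted p = 0.0476).

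**Figure D5:**
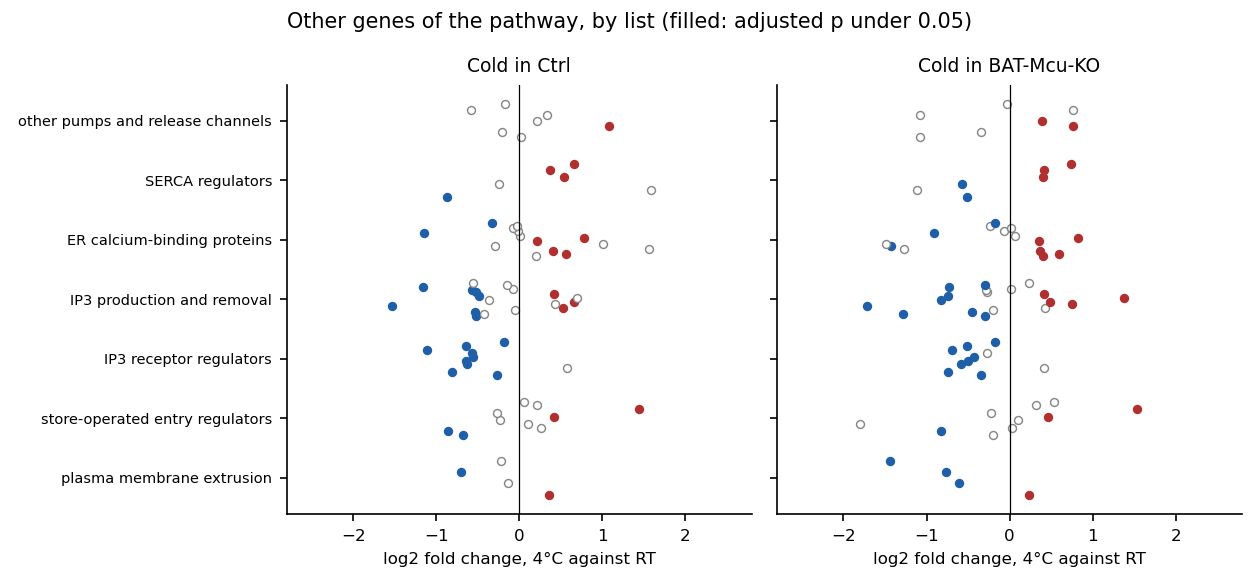
Log2 fold change by cold (horizontal axis) of the 69 other pathway genes, grouped in 7 lists (rows) with small vertical offsets for legibility, in control (left) and knockout mice (right); filled points passed an adjusted p under 0.05, red higher and blue lower at 4°C. The list of IP3 receptor regulators has 9 filled points left of 0 in control and 8 in knockout mice and none right of it, and in control mice the other lists with more than 1 call have filled points on both sides.

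Markers of other cell types differed with cold beside these genes. Of 6 endothelial markers, Pecam1, Kdr and Cldn5 rose and Tie1 fell in both genotypes, where 34.8% of all genes were called in the same direction in both. The summed normalized count of the 6 was 4269 ± 543 (SD, n = 6) at RT and 7609 ± 1633 (n = 5) at 4°C in control mice. In knockout mice it was 4275 ± 577 and 7176 ± 1336 (n = 6 each). Of 6 macrophage markers, 1 rose in control mice (Cd163) and 4 in knockout mice, where 22.3% and 21.4% of all genes rose. The sums of the 6 were 741 ± 111 and 910 ± 158 in control and 775 ± 158 and 1098 ± 120 in knockout mice. The sum of 5 fibroblast markers was, in the same order, 2941 ± 345 and 3425 ± 597 in control and 2970 ± 572 and 3563 ± 458 in knockout mice. That of 6 smooth muscle markers was 2528 ± 352 and 3705 ± 735 in control and 3221 ± 1143 and 3153 ± 443 in knockout mice. Among these, Des and Tagln rose in control and Acta2 and Tagln in knockout mice, while Myh11, Cnn1 and Smtn were called in neither. Des, at a normalized count of 907 to 3294, had log2 fold changes of 0.89 in control and -0.18 in knockout mice. Myh11 had -0.09 and 0.05. The part of skeletal muscle in the Des level was not tested. The sum of 5 Schwann cell markers was 1259 ± 238 and 885 ± 150 in control and 1319 ± 152 and 1007 ± 164 in knockout mice. Of 6 lymphocyte markers 1 was in the table, Cd79a, with group means of 1.88 to 9.25 in normalized count. The part of such cells in the levels of the 8 genes was not tested.

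The genes most like each of the 8 were sought by Pearson's r of log2(normalized count + 1) over the 23 mice. The search covered 9046 genes with a plain gene symbol whose mean normalized count reached 50. Genes with mt-, Gm, Rik, accession-like or date symbols, and the 8 themselves, were left out. These values describe likeness over mice that share groups and libraries. For Atp2a2 the closest were Rragc (r = 0.968), which encodes a Rag GTPase of the lysosome surface, and the kinase gene Mapkapk2 (0.950). Itpr2 was closest to the transcription factor gene Sox6 (0.962) and to Cgnl1 (0.953), and Orai3 to Uck1 (0.951) and Ostf1 (0.949). The other 5 had lower values, from 0.876 between Stim2 and Trim41 and 0.867 between Stim1 and Tacc1 over 0.843 between Itpr1 and Tsga10 to 0.736 between Orai1 and Ncoa6 and 0.721 between Itpr3 and Pnn. After the group means were subtracted, Rragc was still the second closest to Atp2a2 (0.856, after Cic at 0.866), and Itpr2 was closest to Ankrd28 (0.744).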

How the data were processed

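RNA from BAT of 23 mice in 4 groups was sequenced, and each column was matched to its sample by name. Libraries were made by Smart-seq2 and read in pairs of 25 bases, the authors aligned them with STAR (version 2.4.0j) to mm10 with GENCODE M7, and counted unique exonic reads with HTSeq irrespective of strand. The authors kept a gene if 6 or more samples each had 8 or more of its reads. The signal they deposited is the normalized count, the reads of a gene divided by the DESeq2 size factor of the library. A second deposited file holds the authors' own fold changes and p-values and was not used. All low values were whole multiples of 1 read (100% within 0.02), which gave back the reads. Reads copied in PCR are not separate molecules, so read numbers cover counting error only. No 2 mice of a group agreed within sampling noise.

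Since the values are not counts, limma (version 3.58.1, R version 4.3.3) was run on log2(normalized count + 1) with 4 group means, all 23 samples and a variance trend, and p-values were adjusted over 14651 genes by the Benjamini-Hochberg method with a threshold of 0.05. A fold change is 2 to the power of the difference on this scale, which understates changes of low genes. Positions and lengths are from GENCODE M21 on GRCm38. Short reads counted without strand cannot separate overlapping genes, and shared exon bases made up at most 2.58% of any of the 8 genes (Itpr3 with Itpr3os). The members and lists were chosen with earlier results of these data known. Named pathway genes are, in each list, up to 3 genes called by cold in control mice with the smallest adjusted p, and Atp2a1 and Ryr1 of muscle. One gene that this rule names is not reported here. Other genes named (Pln, Calr, Bcl2, Tmx1, Pkd2, Plcb4, Itpkc, Inpp5a, Itpka and Saraf) were chosen after their values were seen. The alternatives were a pseudocount of 0.5 or 10, filters on low values, quantile normalization, scaling to the 75th percentile, a limma fit with no trend, a fit of the 2 compared groups alone, a block for the replicate number, each mouse left out, the recovered reads tested with edgeR (quasi-likelihood, version 4.0.16) or DESeq2 (version 1.42.0), and the length of the longest transcript. Leaving out the 4 libraries highest in muscle markers was added after seeing the data.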

Additional observations from a re-analysis of the deposited data

Results flagged for a closer look

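Of the 32 groups of mice formed by the 8 genes and the 4 groups, 1 held a mouse far from the others by Dixon's criterion. Stim2 in BAT-Mcu-KO mice at 4°C was 146 in mouse 4, with the nearest mouse at 83.3, a gap of 0.710 of the whole range against a critical value of 0.625 for 6 mice. Chance alone gives such a gap in about 1 of 20 groups.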

How the results depend on the processing

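Among the alternatives other than leaving out a mouse, the number of the 8 genes called stayed at 4 to 5 by cold in control mice, at 4 to 6 by cold in BAT-Mcu-KO mice and at 0 in the other comparisons, and the rise of Atp2a2 and the fall of Itpr2 and Orai3 were called under each of them and without each mouse. Without 1 mouse the number called was 3 to 4 by cold in control and 3 to 5 in BAT-Mcu-KO mice, where it was 3 without mouse 2 or 3 at RT or mouse 3 at 4°C. Of the pathway genes 42 were called by cold in BAT-Mcu-KO mice and 28 without the 4 libraries highest in muscle markers (3 of them from RT mice of that genotype), while the calls among all 14651 genes numbered 6349 and 4739. Quantile normalization called Stim1 by cold in control mice (-0.32, adjusted p = 0.0123) and Stim2 by cold in BAT-Mcu-KO mice (0.57, adjusted p = 0.0364, also called without mouse 5 at RT), and limma without the trend lost Itpr1 there (adjusted p = 0.062). The cause of these changes was not tested. Scaling to the 75th percentile moved the all-gene median of the log2 fold changes by cold in control mice from -0.02 to -0.13 and the share of higher among called genes from 48.5 to 38.2%, with the same number of the 8 genes called.

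Signs turned only in differences that did not pass the test. Under quantile normalization these were 0.10 for Itpr3 and 0.058 for Orai1 by cold in BAT-Mcu-KO mice and -0.00045 for Itpr1 by genotype at RT. Without the 4 libraries highest in muscle markers they were 0.094 for Orai1 by cold in BAT-Mcu-KO mice, 0.11 for Itpr3 and -0.14 for Orai1 by genotype at RT, and -0.18 for Itpr3 and -0.0026 for Stim2 in the interaction. When single mice were left out, the ranges that crossed 0 were -0.25 to 0.015 for Itpr3 by cold in control mice, and -0.14 to 0.068 for Itpr3 and -0.21 to 0.055 for Orai1 by cold in BAT-Mcu-KO mice. By genotype at RT they were -0.033 to 0.11 for Atp2a2, -0.028 to 0.089 for Itpr1, -0.23 to 0.022 for Stim2 and -0.071 to 0.16 for Orai1. At 4°C they were -0.19 to 0.078 for Itpr3, -0.058 to 0.083 for Stim1, -0.21 to 0.074 for Stim2 and -0.069 to 0.11 for Orai3, and in the interaction -0.0065 to 0.17 for Itpr1, -0.069 to 0.20 for Itpr3 and -0.13 to 0.19 for Stim2.

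With the length of the longest transcript, Itpr2 made up 54.8, 42.0, 55.7 and 43.9% of the IP3 receptor genes and Stim1 96.3, 94.7, 96.8 and 94.6% of the STIM genes in control RT, control 4°C, BAT-Mcu-KO RT and BAT-Mcu-KO 4°C mice. Mice of different groups share only a replicate number: deviations of same-numbered mice correlated at -0.204 to 0.218 across the 4 pairs of groups. A replicate block changed no call of the 8 genes and gave 0.013 for Itpr3 and -0.026 for Orai3 by genotype at 4°C. The shallowest values are those of Orai1, Itpr3 and Stim2, which rest on as few as 8, 25 and 30 reads.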
